A study of Mus musculus with 75 samples.

Results

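The nuclear genes of oxidative phosphorylation were followed through the replicative ageing of mouse skin fibroblasts and after manipulation of 3 transcription factors. They were chosen by symbol alone, as every gene whose name begins with Nduf, Sdh, Uqcr, Cox4 to Cox8 or Atp5 in the forms that denote subunits, which took 84 of the 24984 genes in the count tables. By symbol, 37 belonged to complex I, 4 to complex II, 8 to complex III, 18 to complex IV and 17 to complex V. The genes encoded on mitochondrial DNA were not analysed here.

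Oxidative phosphorylation is run by 5 protein complexes of the inner mitochondrial membrane. Complexes I and II take electrons from NADH and succinate, complex III passes them to cytochrome c, complex IV gives them to oxygen, and complex V uses the resulting proton gradient to make ATP. Each complex has a few core subunits that carry the redox centres or the catalytic sites. All but complex II, which has 4 subunits, also have many small accessory subunits that hold them together. Most subunits are encoded in the nucleus, and NRF1, GABP and the PGC-1 coactivators are well-known regulators of these genes. Fibroblasts approaching senescence are known to alter their mitochondrial mass and respiration.

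The study passaged untreated C57BL/6 skin fibroblasts, taken from 2-month-old female mice, and sequenced mRNA in 4 libraries from each of 4 passages, the first, the third, the fifth and the seventh, named P1, P3, P5 and P7. ATAC-seq, which maps open chromatin, was made from 4 samples at P1 and from 3 at each of P3, P5 and P7. In further mouse skin fibroblasts, E2f4 was overexpressed from a doxycycline-induced lentivirus (2 libraries against 2 of the vector control), or E2f4, Tead1 or Atf3 was knocked down with short hairpin RNAs (E2f4 sh1, Tead1 sh3 and sh4, Atf3 sh5 and sh6, with 3 libraries each) against 3 libraries of a non-targeting hairpin in each experiment. By the paper's results, E2f4 was overexpressed in pre-senescent cells at P4 and knocked down in proliferating cells at P3, and Atf3 was knocked down in pre-senescent cells. Its methods name a passage later than P4 for senescence interventions in general, without saying which factors or libraries this covers. The passage of the Tead1 and Atf3 libraries is therefore not certain. Cells of newborn and of 2-month-old mice were used for these manipulations, and which library came from which age is not given in the sources used here. The paper's methods name the strain C57BL/6 with the 2-month-old mice and no strain with the newborn mice. Every manipulated cell and its control carried a lentiviral vector, overexpression was driven by an inducible vector and not by the gene's own promoter, and the RNA libraries analysed here hold 1 hairpin only for E2f4. Nothing in the labels says that libraries of a group came from separate mice or cultures, so the p-values measure the spread between these libraries, which may be technical.

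Libraries held 9147324 to 27552949 counted reads. Values are CPM, read counts scaled to a common library size with TMM factors between libraries, and a gene was called higher or lower in a comparison when its adjusted p from edgeR's quasi-likelihood test, over all genes tested, was under 0.05. The test took 80 of the 84 genes in the passages and in the Atf3 experiment, and 79 in the others, where Cox7a1 was also too low. Ndufs5 had 0 counts in all 44 libraries, and whether this came from how reads shared with near-identical sequences were counted was not tested. The tissue-restricted isoforms Cox7b2, Cox8b and Cox8c had few counts or none. All 10 fibroblast markers exceeded 1 CPM in every group, and their sum in the 44 libraries was 17100 to 41700 CPM. Markers of other cells were also present at P1, where 20 of 22 skeletal muscle genes exceeded 1 CPM, and most were lower at P3. Summed levels at P1 and P3 were 244 to 380 and 70.7 to 82.5 CPM for skeletal muscle, 345 to 534 and 49.4 to 68.0 CPM for macrophages, 95.1 to 469 and 12.2 to 17.8 CPM for keratinocytes, 135 to 161 and 39.9 to 46.3 CPM for adipocytes, and 247 to 278 and 206 to 249 CPM for endothelium. The endothelial sum hides opposite changes from P1 to P3. Of its 10 genes 9 fell by a fold over 2, where 6.58% of all genes did, with a median log2 fold change of -2.22. The remaining 1 rose by 1.37. In such bulk samples, fewer cells of a type and less RNA per cell cannot be told apart.

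E2f4 rose from 35.5 to 47.5 CPM in the vector controls to 1120 to 1180 CPM on overexpression, and fell from 59.6 to 60.8 CPM to 20.4 to 21.8 CPM with sh1. Tead1 fell from 508 to 572 CPM to 268 to 285 CPM with sh3 and to 313 to 320 CPM with sh4. Atf3 was low in its experiment, at 2.77 to 3.31 CPM in the non-targeting libraries. It was at 0.451 to 2.10 CPM with sh5, a log2 fold change of -1.14 (SE 0.39, edgeR adjusted p = 0.0447), and at 1.51 to 2.09 CPM with sh6, where its change of -0.79 (SE 0.39) missed the threshold (edgeR adjusted p = 0.114). The library labels of sh6 were therefore not checked by a called change of the target's own transcript, although every sh6 library lay below every non-targeting one. The paper reports the knockdown of Atf3 by RT-qPCR and immunoblot.

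Promoter sequences are shown first for at least 1 gene of each complex, because NRF1 and ETS sites are the textbook entry points to these genes, and for Cox6b2, whose transcript had the largest fold change with passage. Each runs from 250 bases before to 50 after the RefSeq start, 5′ to 3′ on the gene's strand, in GRCm38.p6 (mm10). Capitals mark the letters TGCGCA, a loose NRF1 site, or GCGCATGC, the NRF1 core, where they occur.
Ndufv1 (chr19:4012706-4013005, minus strand): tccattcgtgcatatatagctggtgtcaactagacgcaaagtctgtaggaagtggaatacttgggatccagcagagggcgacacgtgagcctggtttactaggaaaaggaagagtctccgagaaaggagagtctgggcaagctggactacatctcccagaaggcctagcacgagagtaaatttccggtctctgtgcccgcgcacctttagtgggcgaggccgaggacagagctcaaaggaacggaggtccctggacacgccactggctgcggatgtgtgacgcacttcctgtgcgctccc
Sdha (chr13:74350191-74350490, minus strand): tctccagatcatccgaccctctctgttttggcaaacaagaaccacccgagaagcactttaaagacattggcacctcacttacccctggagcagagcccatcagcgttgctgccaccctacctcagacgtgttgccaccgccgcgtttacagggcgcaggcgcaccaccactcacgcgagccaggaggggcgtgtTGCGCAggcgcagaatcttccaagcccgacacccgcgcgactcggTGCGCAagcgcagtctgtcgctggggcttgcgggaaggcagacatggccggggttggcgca
Uqcrc1 (chr9:108936398-108936697, plus strand): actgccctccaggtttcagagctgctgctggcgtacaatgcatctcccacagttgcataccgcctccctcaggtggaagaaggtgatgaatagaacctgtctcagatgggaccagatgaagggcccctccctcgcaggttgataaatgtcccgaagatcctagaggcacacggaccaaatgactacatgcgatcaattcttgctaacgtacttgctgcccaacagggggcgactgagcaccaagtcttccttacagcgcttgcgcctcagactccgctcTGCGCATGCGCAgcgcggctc
Cox5b (chr1:36691237-36691536, plus strand): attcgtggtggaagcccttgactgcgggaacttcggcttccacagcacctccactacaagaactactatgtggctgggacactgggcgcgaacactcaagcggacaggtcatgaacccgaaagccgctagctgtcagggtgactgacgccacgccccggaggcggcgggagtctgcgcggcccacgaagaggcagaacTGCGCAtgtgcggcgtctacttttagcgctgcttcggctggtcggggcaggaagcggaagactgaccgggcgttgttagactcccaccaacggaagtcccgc
Atp5b (chr10:128083057-128083356, plus strand): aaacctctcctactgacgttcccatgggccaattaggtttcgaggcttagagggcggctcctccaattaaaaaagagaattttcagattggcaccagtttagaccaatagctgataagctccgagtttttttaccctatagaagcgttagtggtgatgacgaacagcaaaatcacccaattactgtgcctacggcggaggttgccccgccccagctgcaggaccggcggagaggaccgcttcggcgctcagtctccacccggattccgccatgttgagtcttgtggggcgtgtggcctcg
Cox6b2 (chr7:4753045-4753344, minus strand): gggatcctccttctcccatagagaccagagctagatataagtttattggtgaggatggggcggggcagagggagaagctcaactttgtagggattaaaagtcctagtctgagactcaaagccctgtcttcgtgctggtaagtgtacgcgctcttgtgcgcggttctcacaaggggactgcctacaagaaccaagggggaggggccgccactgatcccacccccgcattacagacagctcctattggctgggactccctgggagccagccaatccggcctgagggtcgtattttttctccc

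RefSeq promoters were at hand for 69 of the 84 genes and not for others, among them Atp5a1, Atp5mpl, Cox4i1, Cox4i2, Cox6a2, Cox6c, Cox8c, Ndufa2, Ndufb9, Ndufs1, Sdhc, Uqcrb, Uqcrc2 and Uqcrq. Both strands were searched for the NRF1 strings GCGCATGC and TGCGCA, for CCGGAAG (an ETS site, which GABP binds) and AAGATGG (YY1). TGCGCA reads the same on both strands, and in Uqcrc1 its copies overlap the GCGCATGC core. The NRF1 core was in 10 of the 69 promoters (14.5%) and in 3.0% of all 27025 promoters of the same length, and TGCGCA in 18 (26.1%) and 8.8%. The ETS letters were in 16 (23.2%) against 9.9% of all promoters, and the YY1 letters in 11 (15.9%) against 7.3%. Of the sequences printed, Sdha, Uqcrc1 and Cox5b held an NRF1 form, while Ndufv1, Atp5b and Cox6b2 held none of the 4 strings in this window. Apart from Cox6b2, each printed gene was picked from a short list of core subunits of its complex for the most NRF1 and ETS matches. Ndufv1 and Atp5b, without a match, were the only ones listed for their complexes with a promoter at hand. Sdha tied with Sdhb. The sites in the printed sequences follow from that choice and do not show how common such sites are.

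The first question was how the subunit genes moved between the earliest and the last passage. From P1 to P7 47 of the 80 tested genes rose and 0 fell, where 30.5% of all genes tested were called higher and 31.9% lower. The median log2 fold change of the 80 genes was 0.35, against -0.01 over all genes. DESeq2 called 46 higher and 0 lower, beside 16.7% and 18.3% of all 24984 genes, those too low to test included. At an unadjusted p under 0.05, 0 were lower. Every complex took part, with 24 of 36 genes of complex I called higher, 2 of 4 of complex II, 4 of 8 of complex III, 10 of 15 of complex IV and 7 of 17 of complex V. The median log2 fold change was lowest in complexes II (0.20) and V (0.23), intermediate in complexes I (0.38) and III (0.40), and 0.51 in complex IV. With a fold over 2 required as well, 5 genes remained among 8.10% of all genes, namely Ndufa7, Ndufa13, Ndufa6, Cox7a1 and Cox6b2.

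**Figure D1:**
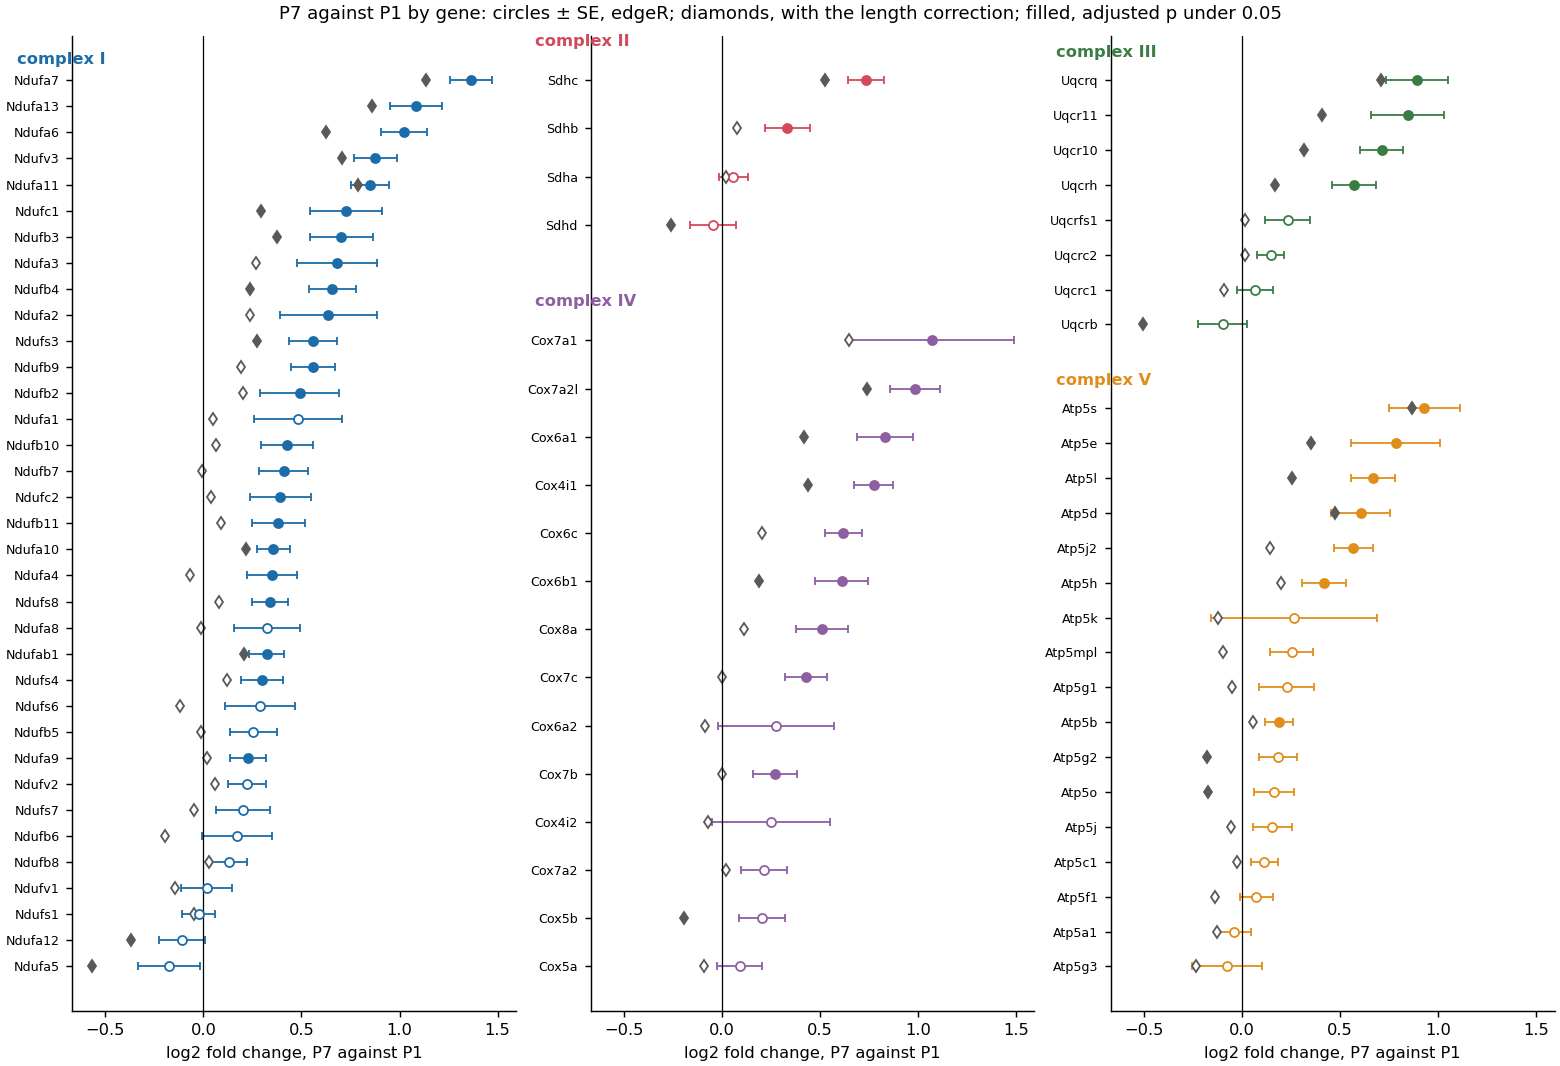
Log2 fold change at P7 against P1 (x axis) of tested genes by complex, with circles and bars for the edgeR value and its SE, diamonds for the value after the correction for exonic length described in the text, and filled symbols for an adjusted p under 0.05. Cox6b2, at 3.93, lies outside the range and is left out. No filled circle lies below 0, and 7 filled diamonds do.

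Several genes for core subunits, among them bearers of redox centres, did not pass the test, and others did. Ndufs1, an iron-sulphur subunit of complex I, was at 78.5, 77.8, 73.8 and 75.7 CPM at P1 and at 85.7, 67.5, 77.1 and 70.3 CPM at P7, a log2 fold change of -0.03 (SE 0.08, edgeR adjusted p = 0.81). Its exons overlap those of Ino80dos on the other strand, and the counts did not use strand. Ndufv1, which holds the NADH and FMN site, changed by 0.02 (SE 0.13), and the values of P1 and P7 overlapped for both genes. Sdha, the flavoprotein of succinate dehydrogenase, gave 208, 196, 203 and 202 CPM at P1 and 216, 219.5, 212 and 195 CPM at P7, also overlapping. In complex III the core protein Uqcrc1 was at 159 to 173 CPM at P1 and 151 to 194 CPM at P7, with the P7 values lying on both sides of the P1 range. The Rieske protein Uqcrfs1 changed by 0.23 (SE 0.12, edgeR adjusted p = 0.089), a value that passed the threshold without P7 replicate 4 (adjusted p = 0.02). Atp5a1, the alpha subunit of ATP synthase, lay at 516 to 555 CPM at P1 and 462 to 567 CPM at P7, with an overlap of its exons with Haus1.

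Ndufs3 and Ndufs8, also core subunits of complex I, rose by 0.56 (SE 0.12, edgeR adjusted p = 0.000599) and 0.34 (SE 0.09, edgeR adjusted p = 0.00289), and for both every P7 library lay above every P1 library. After a correction for each library's trend of level on exonic length Ndufs3 was still called and Ndufs8 was not (edgeR adjusted p = 0.00579 and 0.336). Sdhb, the iron-sulphur subunit of complex II, rose by 0.33 (SE 0.11, edgeR adjusted p = 0.0153) but not without P7 replicate 1 (adjusted p = 0.0723). Atp5b, the catalytic beta subunit, rose by 0.19 (SE 0.07, edgeR adjusted p = 0.0298), from 938 to 979 CPM to 1010 to 1181 CPM, and lost its call without P1 replicate 3 or 4 or P7 replicate 1 or 2 (adjusted p = 0.0596, 0.0653, 0.0568 and 0.0913). Cox5a and Cox5b, nuclear-encoded subunits beside the mitochondrially encoded core of complex IV, changed by 0.09 (SE 0.11) and 0.20 (SE 0.12), and neither passed, although Cox5b did without P7 replicate 4 (edgeR adjusted p = 0.0347).

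The largest differences lay in accessory subunits. Ndufa7 (chr17:33824572-33838316), an accessory subunit of the matrix arm of complex I, was at 40.9, 35.2, 33.2 and 35.9 CPM at P1, at 48.6 to 54.5 CPM at P3, at 71.1 to 88.1 CPM at P5, and at 110.3, 98.2, 87.4 and 78.2 CPM at P7. Its log2 fold change from P1 to P7 was 1.36 (SE 0.10, edgeR adjusted p = 1.27e-09), and the ranges of P1, P3 and P5 followed each other without overlap, while P7 overlapped P5. Ndufa13 rose by 1.09 (SE 0.13) and Ndufa6, a small protein of the LYR family, by 1.02 (SE 0.12). Both were above every P1 library in all 4 P7 libraries, and the exons of Ndufa13 overlap Tssk6 on the other strand.

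Sdhc, a membrane anchor of complex II, gave 68.0, 65.7, 66.4 and 67.5 CPM at P1 and 122, 117, 104 and 103 CPM at P7. It rose by 0.74 (SE 0.09, edgeR adjusted p = 1.21e-06), whereas Sdhd, the other anchor, changed by -0.04 (SE 0.12, edgeR adjusted p = 0.76). The difference between the anchors was not tested. In complex III the rise was in the small subunits Uqcrq (0.89, SE 0.16), Uqcr11 (0.85, SE 0.19), Uqcr10 (0.71, SE 0.11) and Uqcrh (0.57, SE 0.11). Uqcrq was at 90.3, 76.8, 81.4 and 72.5 CPM at P1 and at 200.5, 150.5, 129 and 116 CPM at P7, with no overlap between the groups, though its exons overlap Gdf9 on the other strand. Uqcrb, a small subunit of the same complex, did not rise (-0.10, SE 0.13, edgeR adjusted p = 0.507).

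Complex IV had the highest median, and most of its common isoforms rose. Cox4i1, the common isoform of subunit 4, was at 209, 210, 192 and 191 CPM at P1 and at 422, 354, 308 and 290.0 CPM at P7, a rise of 0.78 (SE 0.10, edgeR adjusted p = 1.2e-06). Cox7a2l, a homologue of subunit 7a known for its part in supercomplexes of complexes III and IV, gave 98.8, 99.0, 92.9 and 94.1 CPM at P1 and 237, 184, 173 and 167 CPM at P7, a rise of 0.98 (SE 0.13, edgeR adjusted p = 1.76e-06). Cox6a1 rose by 0.83 (SE 0.14), Cox6b1 by 0.61 (SE 0.13) and Cox8a by 0.51 (SE 0.13), each with every P7 library above every P1 library. Cox7b was called at 0.27 (SE 0.11, edgeR adjusted p = 0.0411), but not without P7 replicate 1 (0.13, adjusted p = 0.225) or without P1 replicate 1, 3 or 4 (adjusted p = 0.0525, 0.0782 and 0.0866). Cox7a2, which differed by 0.21 (SE 0.12, edgeR adjusted p = 0.117), passed without P7 replicate 3 or 4 (adjusted p = 0.0482 and 0.0268), and its exons overlap those of Tmem30a.

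Tissue-restricted isoforms of complex IV stayed close to the limit of detection. Cox6b2, the testis form of subunit 6b, had 5, 0, 0 and 0 reads at P1, 3, 1, 5 and 9 at P3, 13, 5, 23 and 5 at P5, and 18, 12, 27 and 16 at P7. The fitted log2 fold change of 3.93 (SE 0.78, edgeR adjusted p = 0.00023) rests on those few P1 reads, but the groups did not overlap. Cox7a1, a heart and muscle form, had 5, 12, 7 and 10 reads at P1 and 27, 10, 10 and 16 at P7, which overlap. Its call (edgeR adjusted p = 0.0314) was lost without P1 replicate 1 or 3 or P7 replicate 1 (adjusted p = 0.0893, 0.0673 and 0.174). Cox4i2 (0.25, SE 0.30) and the muscle form Cox6a2 (0.28, SE 0.29) did not pass, and the muscle form Cox8b had 3, 4, 2 and 6 reads at P1 and 1, 0, 0 and 0 at P7, beside the loss of muscle markers described above. Of that muscle list 5 of 22 genes exceeded 1 CPM at P7, with a sum of 48.3 to 118 CPM, and Ckm, Myog, Myod1 and Myf5 were at 0.

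In complex V 7 of 17 genes rose, among them genes of the central stalk and the membrane sector, and no gene of the c ring passed in the full set. Atp5e, the epsilon subunit of the central stalk, was at 46.2, 39.6, 36.7 and 34.5 CPM at P1 and at 91.5, 65.8, 64.7 and 48.0 CPM at P7, a rise of 0.78 (SE 0.23, edgeR adjusted p = 0.00582). Atp5d, the delta subunit beside it, rose by 0.61 (SE 0.15), and Atp5l, the membrane subunit g, by 0.67 (SE 0.11), with an overlap of its exons by Gm30934. Atp5g1, Atp5g2 and Atp5g3, 3 genes for the same c subunit, changed by 0.23 (SE 0.14), 0.18 (SE 0.10) and -0.08 (SE 0.18), with no call. Atp5g1 and Atp5g2 passed without P7 replicate 4 (edgeR adjusted p = 0.0473 and 0.0427). Atp5s, a coupling factor and not a structural subunit, rose by 0.93 (SE 0.18) from 3.21 to 6.16 CPM to 6.48 to 9.43 CPM.

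**Figure D2:**
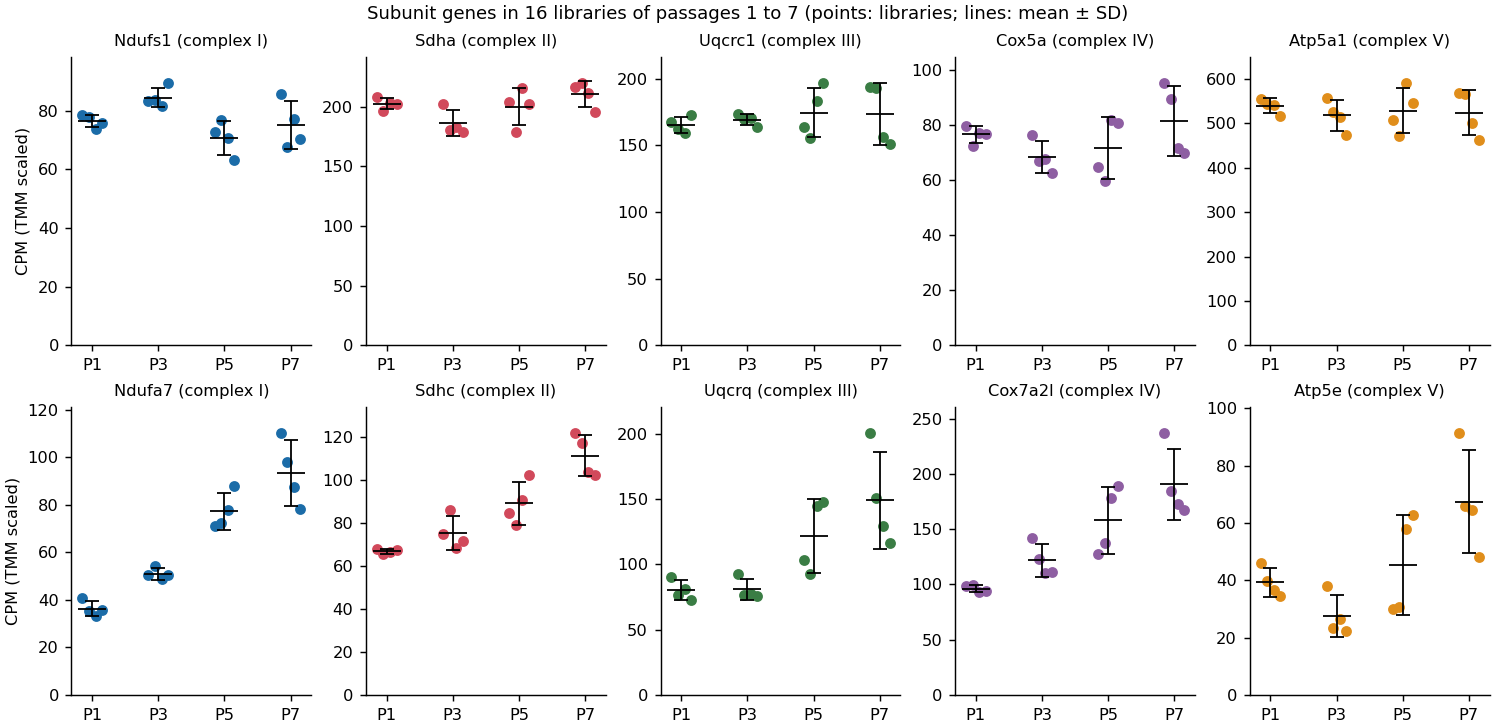
TMM-scaled CPM (y axes, from 0) at P1, P3, P5 and P7 of 2 genes of each complex, 1 in the top row and 1 in the bottom row, with points for single libraries and lines for the mean ± SD of 4. The genes of the top row overlap between P1 and P7, while in the 5 lower panels every P7 library lies above every P1 library.

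The P7 libraries were not alike. Over the 78 genes with a mean of at least 1 CPM, the median log2 difference from the P1 mean was 0.65, 0.38, 0.18 and 0.15 in P7 replicates 1 to 4, and all of these lay above the P1 libraries, which ranged from -0.05 to 0.06. Replicate 1 was the highest in each of the 5 complexes, from 0.38 in complex II to 0.72 in complex IV. Without P7 replicate 1, 36 genes were called higher and 1 lower, beside 29.2% and 31.6% of all genes. Without P7 replicate 4, 59 were called higher, beside 29.9%.

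Per kilobase of exon, Atp5b and several complex IV genes had the highest levels. Atp5b was highest at P1, at 511 ± 10.9 CPM per kb (SD, n = 4), followed by Cox6a1 at 302 ± 12.6, Cox4i1 at 262 ± 13.6, Cox7c at 223 ± 8.63 and Atp5a1 at 222 ± 6.87. At P7 Atp5b (582 ± 48.4 CPM per kb) and Cox6a1 (538 ± 99.2) lay within 1 SD of each other, and Cox4i1 was at 449 ± 77.1. Cox8a was at 307 ± 45.9 CPM per kb at P7, Cox6b1 at 292 ± 48.5 and Atp5a1 at 215 ± 21.2.

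The single steps showed when these genes moved. From P1 to P3, 8 genes were called higher and 9 lower, where 16% and 17.5% of all genes were. Ndufa7 rose by 0.49 (SE 0.10, edgeR adjusted p = 0.00126), and the small subunits Ndufa1 and Ndufa3 of complex I fell by 0.82 (SE 0.23) and 0.62 (SE 0.21). Atp5k, the membrane subunit e of ATP synthase, was the 1 gene that fell by a fold over 2, among 6.58% of all genes. It was at 22.7, 18.4, 19.3 and 19.0 CPM at P1, at 14.7, 2.47, 6.25 and 5.71 CPM at P3, at 6.78, 2.84, 20.4 and 19.4 CPM at P5 and at 33.7, 21.2, 19.9 and 20.4 CPM at P7. All 4 P3 libraries lay below P1, by -1.44 (SE 0.45, edgeR adjusted p = 0.0197), while P7 overlapped P1, and the P5 libraries fell into a low and a high pair. The Atp5k call was lost without P3 replicate 2, 3 or 4 (adjusted p = 0.0681, 0.0518 and 0.0551).

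The P1 to P3 counts were the least firm. Leaving out P1 replicates 1, 2, 3 or 4 gave 5, 3, 1 or 2 genes called higher, and leaving out P3 replicates 2, 3 or 4 gave 2, 4 or 3. Of all genes, 12.2% to 13.9% were called higher in these fits. Genes called lower numbered 4 or 5 without P1 replicate 1 or 2, beside 14.3% and 14.9% of all genes. They numbered 14, 1, 5 or 3 without P3 replicate 1, 2, 3 or 4, beside 17.8%, 14.2%, 15.3% and 14.1%. Ndufa3 lost its call in 5 of these 8 omissions, among them P3 replicate 2 (edgeR adjusted p = 0.0912).

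From P3 to P5, 24 genes rose and 1 fell, beside 13.4% and 15.3% of all genes. The risers were 13 of complex I, 3 of complex III, 6 of complex IV and 2 of complex V, and the single gene called lower was Ndufs1 (-0.26, SE 0.08, edgeR adjusted p = 0.0271), whose call was lost without P3 replicate 4 or P5 replicate 3 or 4 (adjusted p = 0.0893, 0.0621 and 0.0941). Ndufa13 rose by 0.75 (SE 0.13), Ndufa3 by 0.84 (SE 0.21) and Uqcr11 by 0.82 (SE 0.19), the last 2 with overlapping groups. P5 libraries differed among themselves by more than the median step. Their median log2 differences from P1 were 0.10, -0.02, 0.33 and 0.35 in replicates 1 to 4. Without P5 replicate 2, 39 genes were called higher, beside 14.9% of all genes. Without P5 replicate 3 or 4 the count was 14 or 15, beside 8.73% and 8.41%. Without P3 replicate 3 or 4 it was 15 each, beside 8.7% and 9.5%.

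From P5 to P7, 12 genes rose and 0 fell, beside 7.67% and 9.10% of all genes. DESeq2 called 17 higher and 0 lower, beside 4.85% and 5.47% of all 24984 genes, those too low to test included. At an unadjusted p under 0.05, 3 were lower. Uqcrh rose by 0.56 (SE 0.11) and Ndufb3, a membrane subunit of complex I, by 0.64 (SE 0.16), both without overlap. The count was 3 without P5 replicate 1 or 2 or P7 replicate 1, beside 5.02%, 6% and 6.77% of all genes. It was 7 without P7 replicate 2 (all genes 6.1%), 20 without P5 replicate 4 (8.99%) and 21 without P7 replicate 4 (7.27%). A single gene was called lower without P5 replicate 4, P7 replicate 1 or P7 replicate 2, beside 10.2%, 8.53% and 7.27% of all genes.

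Against P3, the P7 libraries had 51 genes higher and 0 lower, beside 24.8% and 26.5% of all genes, with a median of 0.48. DESeq2 called 53 higher and 0 lower, beside 14% and 14.3% of all 24984 genes, those too low to test included. At an unadjusted p under 0.05, 1 was lower. Markers of other cells also differed, with 15 of 20 skeletal muscle genes, 9 of 10 endothelial and 7 of 12 macrophage genes lower at P7 than at P3, and their part was not tested. The genes past a fold of 2 numbered 9, among 4.44% of all genes, and all but the low isoforms Cox6b2 and Cox7a1 were small subunits, namely Atp5k (1.70), Uqcr11 (1.35), Ndufa1 (1.30), Ndufa3 (1.30), Ndufa2 (1.29), Atp5e (1.29) and Ndufb3 (1.05 on the log2 scale). The exons of Ndufa1 and Ndufa2 overlap those of Rnf113a1 and Tmco6. Cox7a1 lost its call without P3 replicate 3 or 4 or P7 replicate 1 or 4 (edgeR adjusted p = 0.0997, 0.0909, 0.189 and 0.0554). Uqcr11 was at 27.4, 17.6, 22.8 and 21.7 CPM at P3 and at 78.3, 56.0, 50.2 and 44.02 CPM at P7. Without P7 replicate 1, 2 genes were called lower, beside 25.2% of all genes. The comparisons of P7 with P1 and with P3 share the P7 libraries.

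**Figure D3:**
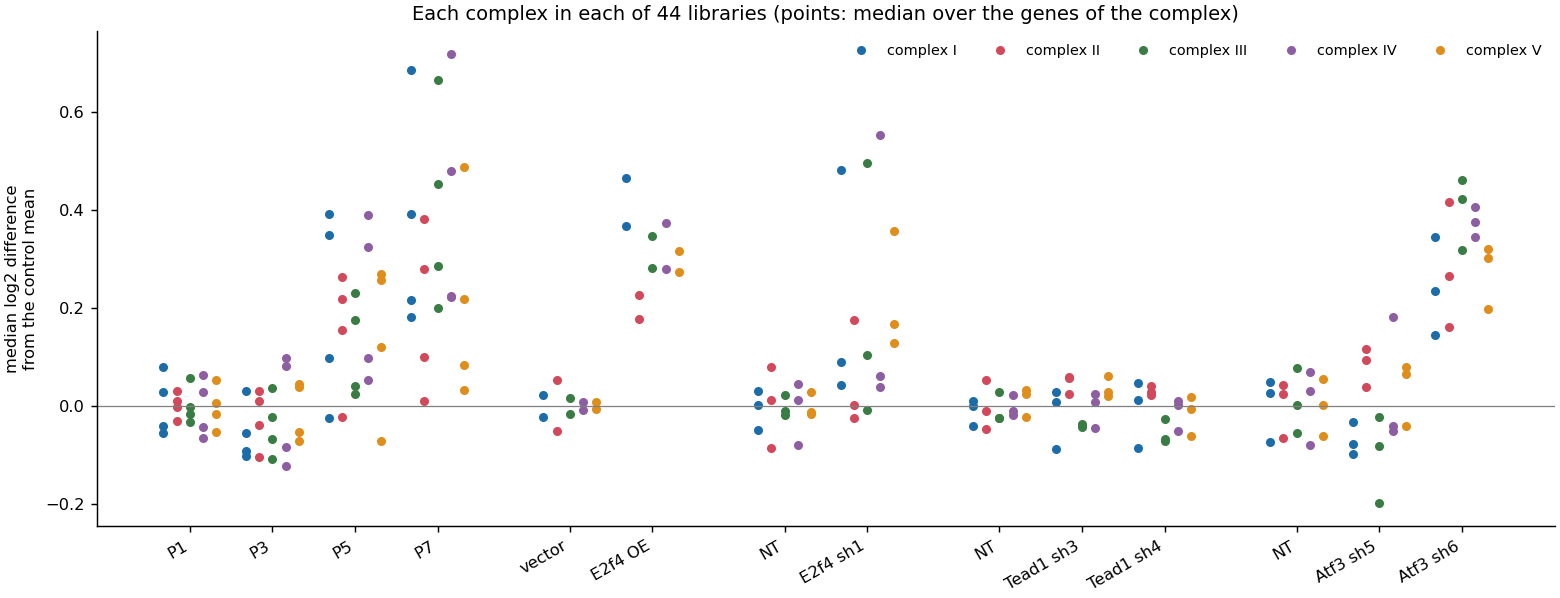
Median log2 difference from the mean of the control group (y axis; P1, vector or non-targeting, NT) over the genes of each complex with a mean of at least 1 CPM, as 1 point for each of 44 libraries. P7 replicate 1 stands above the other P7 libraries in all 5 complexes and replicate 3 of E2f4 sh1 above the other sh1 libraries in all but complex II, and both Tead1 hairpins stay near 0.

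The genes have short transcripts, and short transcripts moved as a class. The 84 genes had a median exonic length of 865 bases and an exonic GC content of 52.4%, against 2563 bases and 49.0% over all matched genes. Of 42 tested genes under 1000 bases, 28 were higher at P7 than at P1, with a median of 0.50. Among 589 other genes of that length 44.1% were higher, with a median of 0.33. Between 1000 and 2000 bases, 15 of 30 were higher (median 0.23, other genes 0.18), and between 2000 and 4000 bases 4 of 8 (median 0.23, other genes 0.02). Across genes, Spearman's rho between length and log2 fold change was -0.38 over the 80 genes and -0.17 over 13345 others, as a description, since the genes share all libraries.

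A correction that removed each library's own trend of level on exonic length therefore bears on every count here. After it, 26 genes were higher and 7 lower at P7 than at P1, beside 30.6% and 32.4% of all genes, with a median of 0.06. All 26 were also among the 47, and they numbered 12 in complex I, 1 in complex II, 4 in complex III, 5 in complex IV and 4 in complex V. The rise remained for Ndufa7 (1.14, SE 0.07, edgeR adjusted p = 1.32e-10), Ndufa13 (0.86), Ndufa11 (0.79), Ndufv3 (0.71), Ndufa6 (0.63), Sdhc (0.53), Uqcrq (0.71), Cox7a2l (0.74), Cox4i1 (0.44), Cox6a1 (0.42), Atp5d (0.47), Atp5e (0.35), Atp5s (0.87) and Cox6b2 (3.58). Sdhb, Cox7b, Cox8a, Cox7a1 and Atp5b lost their calls. The 7 genes called lower only then were Ndufa5 (-0.57), Ndufa12 (-0.37), Sdhd (-0.26), Uqcrb (-0.50), Cox5b (-0.19), Atp5g2 (-0.18) and Atp5o (-0.17).

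The same correction moved the other passage comparisons too. Against P3, 26 genes were higher and 15 lower at P7, beside 24.8% and 26.3% of all genes. In complex V 4 were higher and 6 lower, and 2 of the lower ones had been called higher before the correction. From P1 to P3 the counts became 20 higher and 11 lower, beside 17.6% and 18.8%, from P3 to P5 11 and 2, beside 13.8% and 15.4%, and from P5 to P7 3 and 6, beside 8.71% and 10.6%. Whether the length trend arose in the cells or in the libraries was not tested.

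**Figure D4:**
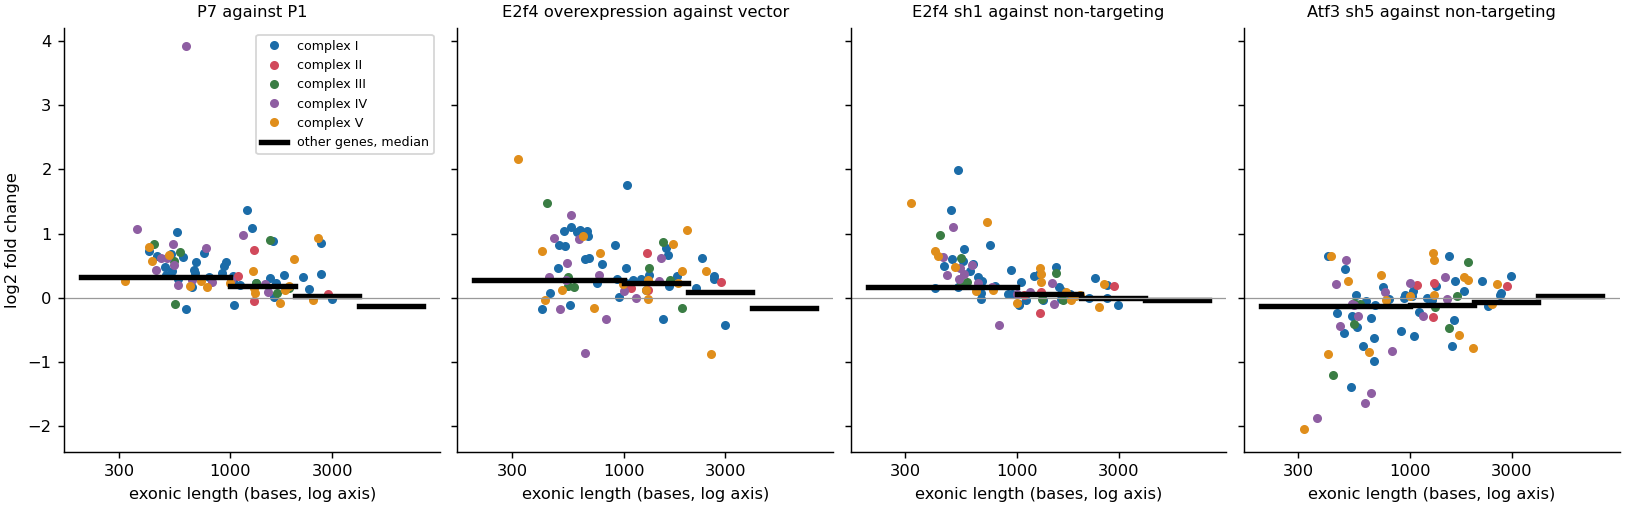
Log2 fold change (y axis) against exonic length in bases (x axis, log scale) of each tested gene in 4 comparisons, coloured by complex, with black bars for the median of all other genes in 4 length classes. In the first 3 panels shorter genes lie higher for the subunits and for the other genes alike, and with Atf3 sh5 the shortest subunit genes lie lowest.

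The wider pathway gave a mixed picture at P7, where 30.5% of all genes were called higher and 31.9% lower. All 4 assembly factors of complex II rose, with Sdhaf4 at 1.15 (SE 0.22), as did 11 of 20 of complex IV, with Cox14 at 1.09 (SE 0.15), while 3 of the 20 fell. Of the complex I factors 5 of 16 rose and 1 fell, with Timmdc1 at 0.90 (SE 0.10), of complex III 3 of 6 rose, with Lyrm7 at 1.14 (SE 0.24), and of complex V 1 of 3, Tmem70 at 0.83 (SE 0.10). Of 17 genes for electron carriers and their synthesis 6 rose and 1 fell, Pdss1 of ubiquinone synthesis by 1.504 on the log2 scale (SE 0.17).

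Among 20 regulators of mitochondrial gene expression, 2 rose and 8 fell, beside the same 30.5% and 31.9% of all genes. The coactivator Ppargc1b was at 7.05, 9.24, 7.18 and 8.91 CPM at P1 and at 1.37, 1.62, 1.23 and 1.34 CPM at P7, a fall by 2.54 on the log2 scale (SE 0.23, edgeR adjusted p = 1.53e-08). Its relative Ppargc1a was too low to test, at 0.41 to 0.62 CPM at P1 and 0 to 0.39 CPM at P7. Nrf1 fell by 0.54 (SE 0.10, edgeR adjusted p = 7.64e-05), a call lost with the length and GC content correction (-0.27, edgeR adjusted p = 0.102). Tfam, which packages and transcribes mitochondrial DNA, fell by 0.38 (SE 0.12, edgeR adjusted p = 0.0102). Esrra, a nuclear receptor that works with the PGC-1 coactivators, rose by 0.77 (SE 0.20, edgeR adjusted p = 0.00251), and Gabpa changed by -0.09 with no call.

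Overexpression of E2f4, a factor of the E2F family that is known mainly for repression of cell cycle genes, gave 43 of 79 genes higher and 3 lower, beside 28.9% and 28.2% of all genes, with a median of 0.33. By complex 21 of 36, 1 of 4, 5 of 8, 7 of 14 and 9 of 17 genes of complexes I to V were higher. A fold over 2 was passed by 10, among 7.69% of all genes. They were Ndufa2, Ndufa3, Ndufa5, Ndufa12, Ndufb10 and Ndufs6 of complex I, Uqcr11, Cox5b, Atp5d and Atp5k.

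Atp5k was at 2.01 and 7.32 CPM in the vector controls and at 17.3 and 23.1 CPM with E2f4, a log2 fold change of 2.17 (SE 0.39, edgeR adjusted p = 0.000817). Ndufa12, an accessory subunit of complex I, was at 5.28 and 13.2 CPM and at 29.9 and 31.4 CPM (1.76, SE 0.29), and Cox5b at 19.8 and 17.3 CPM and at 40.5 and 50.5 CPM (1.29, SE 0.15). For all 3 genes both E2f4 libraries lay above both controls, and for Atp5k and Ndufa12 the controls themselves differed by a fold over 2. Ndufv1 (0.67, SE 0.12), Cox5a (0.62, SE 0.11), Uqcrfs1 (0.46, SE 0.11), Atp5a1 and Atp5b (both 0.42, SE 0.10) rose. Sdha (0.25, SE 0.11, edgeR adjusted p = 0.0709) and Sdhb (0.16, SE 0.11) did not pass.

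The 3 genes called lower were Ndufs1, Ndufs4 and Atp5s. Ndufs1 was at 80.5 and 68.4 CPM in the controls and at 59.8 and 50.8 CPM with E2f4 (-0.43, SE 0.13, edgeR adjusted p = 0.0157), a call lost without E2f4 replicate 2 (adjusted p = 0.198). Ndufs4 (-0.32, SE 0.12, edgeR adjusted p = 0.0388) lost its call without either E2f4 library or without control replicate 1 (adjusted p = 0.178, 0.208 and 0.122). The count of genes called lower was 0 without that library, 1 without control replicate 1 and 6 without control replicate 2, and with 2 libraries a group each omission leaves 1 that is assumed to vary like the rest. With the length correction 25 genes were higher and 11 lower, beside 28.4% and 27.5% of all genes, all 25 and the 3 lower ones shared with the uncorrected calls. Summed keratinocyte markers were 92.8 to 98.1 CPM with E2f4 and 57.6 to 62.2 CPM in the controls, and skeletal muscle markers 27.0 to 28.9 and 71.8 to 82.4 CPM. Few genes carried these sums. Of 12 keratinocyte genes 4 exceeded 1 CPM with E2f4 and 5 in the controls, and of 22 muscle genes 3 did in each group. The part of these markers in the differences was not tested.

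Knockdown of E2f4 also gave more genes higher than lower, 23 of 79 against 0, beside 10% and 7.79% of all genes, with a median of 0.22. DESeq2 called 21 higher and 0 lower, beside 4.09% and 2.91% of all 24984 genes, those too low to test included. At an unadjusted p under 0.05, 2 were lower. No gene of complex II was called, and 10 of complex I, 2 of complex III, 3 of complex IV and 8 of complex V were. A fold over 2 was passed by 5, among 1.46% of all genes, namely Ndufa3, Atp5k, Ndufa1, Atp5mpl (a small proteolipid of ATP synthase) and Cox6c.

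Replicate 3 of sh1 carried much of the size of these differences. Ndufa3 was at 5.63, 6.69 and 8.52 CPM in the non-targeting libraries and at 10.7, 12.2 and 60.3 CPM with sh1 (1.98, SE 0.51, edgeR adjusted p = 0.0153). Cox6c, at 26.6, 39.2 and 36.8 CPM in the controls, was at 56.9, 57.6 and 105 CPM with sh1 (1.096, SE 0.20, edgeR adjusted p = 0.00173). All 3 sh1 libraries lay above the controls for these genes, with replicate 3 far above the other 2. The median log2 difference over all genes of the pathway was 0.04, 0.09 and 0.41 in replicates 1 to 3.

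Without sh1 replicate 3, 15 genes were called higher and 2 lower, beside 11.2% and 9.02% of all genes. Without non-targeting replicate 1, 2 or 3, 5, 9 or 13 were called higher, beside 5.6%, 6.43% and 6.65%. Ndufa3 and Atp5k lost their calls without non-targeting replicate 1 (edgeR adjusted p = 0.0861 and 0.0883) or replicate 2 (0.0733 and 0.0825), and DESeq2 did not call Ndufa3 (adjusted p = 0.079). Ndufs1, Ndufv1, Sdha, Sdhb, Uqcrc1, Uqcrfs1, Atp5a1 and Atp5b did not pass. Atp5a1 was lower in all 3 sh1 libraries, by -0.15 (SE 0.06, edgeR adjusted p = 0.0936). The relation to length was steep, with a Spearman's rho of -0.63 across the 79 genes and -0.13 across 12213 others, and after the length correction 9 genes were higher and 2 lower, beside 10.8% and 8.03%. Fibroblast markers summed to 27200 to 30500 CPM with sh1 and 35600 to 36700 CPM in the controls, and muscle markers to 118 to 143 and 82.2 to 83.3 CPM. Of 22 muscle genes only 3 exceeded 1 CPM with sh1 and 4 in the controls. The part of these markers was not tested.

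Without correction, overexpression and knockdown of E2f4 thus both had more subunit genes called higher than lower, in separate experiments with separate controls. With the correction for length and GC content together, overexpression had 20 higher and 23 lower, beside 26.3% and 25.1% of all genes. With sh1 it gave 11 and 2, beside 11.1% and 8.17%. Spearman's rho between GC content and log2 fold change on overexpression was 0.29 across the 79 genes and 0.56 across 13099 others. It was 0.01 and -0.06 with sh1. Without correction, Ndufa3 and Atp5k passed a fold of 2 in both experiments. Ndufa12 and Cox5b, which did so on overexpression, were not among the genes past a fold of 2 with sh1, where Cox5b changed by 0.38 (SE 0.20, edgeR adjusted p = 0.226). The difference between the experiments was not tested.

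Knockdown of Tead1, a DNA-binding partner of YAP and TAZ, moved few subunit genes and left the median at 0.00 with sh3 and -0.02 with sh4. The paper reports decreased oxidative phosphorylation after Tead1 knockdown from gene set enrichment analysis, a different measure that was not repeated here. With sh3 9 genes were higher and 11 lower, beside 17.6% and 17.7% of all genes, and with sh4 6 and 9, beside 14.4% and 14.7%. The hairpins share their non-targeting libraries. DESeq2 called 7 and 9 with sh3, beside 7.97% and 8.08% of all 24984 genes, those too low to test included. With sh4 it called 4 and 9, beside 6.3% and 6.51%.

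Atp5f1, the b subunit of the peripheral stalk of ATP synthase, was at 144, 155 and 138 CPM in the controls, at 94.5, 88.7 and 91.4 CPM with sh3 (-0.67, SE 0.05, edgeR adjusted p = 1.17e-11) and at 84.7, 83.8 and 74.2 CPM with sh4 (-0.84, SE 0.05, edgeR adjusted p = 1.97e-13). Uqcrc1 was at 174, 187 and 192 CPM in the controls, at 159.9, 141 and 136 CPM with sh3 (-0.34, SE 0.05) and at 155, 143 and 148 CPM with sh4 (-0.31, SE 0.05). Neither gene overlapped its controls with either hairpin. Atp5k was at 20.1, 16.4 and 15.8 CPM in the controls, at 7.41, 8.93 and 9.09 CPM with sh3 and at 12.2, 11.6 and 7.71 CPM with sh4. It was the only subunit gene that fell by a fold over 2 with sh3 (-1.04, SE 0.13), among 0.722% of all genes.

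Cox4i2, the lung isoform of subunit 4, passed a fold of 2 upward with sh3 (1.22, SE 0.36), among 1.99% of all genes, and with sh4 (1.01, SE 0.37), among 1.01%. Its level was 0.510 to 0.982 CPM in the controls, 1.54 to 1.69 CPM with sh3 and 0.862 to 1.82 CPM with sh4, where the groups overlapped and the call was lost without sh4 replicate 1 or 2 or non-targeting replicate 1 or 2 (edgeR adjusted p = 0.115, 0.183, 0.115 and 0.143). With sh3 5 genes were called higher without sh3 replicate 3 or non-targeting replicate 3, beside 15.1% and 14.8% of all genes. With sh4 3 were called higher without non-targeting replicate 2, beside 12.6%. The length correction gave 12 higher and 10 lower with sh4, beside 14.9% and 15.4% of all genes. In a direct comparison of sh4 with sh3, 1 gene was higher (Uqcrh, 0.21) and 2 lower (Atp5g1, -0.20, and Atp5f1, -0.18), beside 3.34% and 4.03% of all genes.

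The hairpins against Atf3, an AP-1 family factor, differed from each other. With sh5 13 of 80 genes were higher and 17 lower, beside 17.7% and 18.1% of all genes, with a median of -0.04. With the correction for length and GC content together, sh5 had 27 higher and 15 lower, beside 10.3% and 16.4% of all genes. Spearman's rho between GC content and log2 fold change with sh5 was -0.38 across the 80 genes and -0.64 across 13245 others. With sh6 36 were higher and 6 lower, beside 23.8% and 26.0%, with a median of 0.30. Compared directly, sh6 against sh5 had 37 genes higher and 2 lower, beside 25.9% and 26.6%. The hairpins share their non-targeting libraries, and by the transcript counts above only sh5 had a called reduction of Atf3.

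Among the rises were the catalytic subunit of ATP synthase and an accessory subunit of complex I. Atp5b was at 689.7, 707 and 729.9 CPM in the controls, at 849, 848 and 874 CPM with sh5 (0.27, SE 0.06, edgeR adjusted p = 0.0068) and at 1248, 1239 and 1168 CPM with sh6 (0.78, SE 0.06, edgeR adjusted p = 3.11e-06). Ndufs4, an accessory subunit of complex I whose loss causes Leigh syndrome, was at 29.4, 28.7 and 31.0 CPM in the controls, at 45.2, 44.3 and 51.0 CPM with sh5 (0.66, SE 0.09) and at 52.4, 56.6 and 58.7 CPM with sh6 (0.91, SE 0.09). Neither gene overlapped its controls.

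With sh5, Atp5k (-2.05, SE 0.32), Cox6b2 (-1.64, SE 0.28), Ndufa3 (-1.40, SE 0.15) and Uqcr11 (-1.20, SE 0.27) fell by a fold over 2, among 3.82% of all genes. Ndufa3 was at 24.6, 32.3 and 30.3 CPM in the controls, at 10.4, 10.9 and 11.95 CPM with sh5, without overlap. The rises with sh5 included Atp5h, the d subunit of the peripheral stalk (0.70, SE 0.18), which lost its call without non-targeting replicate 1 (edgeR adjusted p = 0.0525), and Atp5j2, which lost it without any one of the 3 non-targeting libraries (adjusted p = 0.0651 to 0.0856). For Atp5h, Atp5j2, Cox4i1 and Sdha, replicate 3 of sh5 stood above the other 2, for example at 338 CPM of Cox4i1 against 197 and 195 CPM. It stood below them for Atp5g2, Cox6a1 and Atp5d, with 374 reads of Atp5g2 against 1076 and 1277. The chi-square of counts over its degrees of freedom, a measure of spread beyond sampling noise, was 59.4 and 63.7 for its pairs. It was 3.29 between replicates 1 and 2. Without sh5 replicate 3, 16 genes were called higher and 23 lower, beside 21.1% and 20.3% of all genes. Without non-targeting replicate 1, 2 or 3, 6, 7 or 7 genes were called higher, beside 14.2%, 10.2% and 10.7% of all genes. Without non-targeting replicate 2 or 3, 8 or 9 were called lower, beside 9.73% and 10.6%.

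With sh6, the Rieske protein Uqcrfs1 was at 65.8, 66.3 and 72.0 CPM in the controls and at 123, 118 and 108 CPM (0.78, SE 0.13, edgeR adjusted p = 0.000594), Cox5a at 66.4, 67.3 and 64.3 CPM and at 116, 118 and 108 CPM (0.79, SE 0.07, edgeR adjusted p = 1.18e-05). Both were above every control library, and neither was called with sh5 (-0.14, SE 0.13, and -0.02, SE 0.07). In complexes I to V 17, 2, 5, 5 and 7 genes were higher and 2, 0, 0, 3 and 1 lower.

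A fold over 2 downward was passed with sh6 by the isoforms Cox6a2, Cox6b2 and Cox4i2, among 10.9% of all genes. Cox6a2, the heart and muscle form of subunit 6a, had 27, 46 and 30 reads in the controls and 1, 0 and 6 with sh6. The summed skeletal muscle markers were 43.9 to 45.1 CPM in the controls, where 3 of 22 genes exceeded 1 CPM. With sh6 the sum was 203 to 223 CPM, but only 5 of 22 genes exceeded 1 CPM. Tnni2, Myl1, Myh4, Myh8, Myog and Myf5 were at 0 with sh6. Cox4i2 (-1.80, SE 0.51) lost its call without sh6 replicate 1 or 2 or non-targeting replicate 2 (edgeR adjusted p = 0.0621, 0.061 and 0.0524). Fibroblast markers summed to 39200 to 40900 CPM in the controls, 25500 to 37700 CPM with sh5 and 17100 to 18000 CPM with sh6, and their part in these results was not tested. The count of genes higher with sh6 was 22 without sh6 replicate 2 and 20 without non-targeting replicate 1, beside 19.3% and 20% of all genes. The count lower was 3 without sh6 replicate 2 or non-targeting replicate 2, beside 21% and 21.9%. After the length correction 19 were higher and 14 lower, beside 24.1% and 25.7% of all genes.

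**Figure D5:**
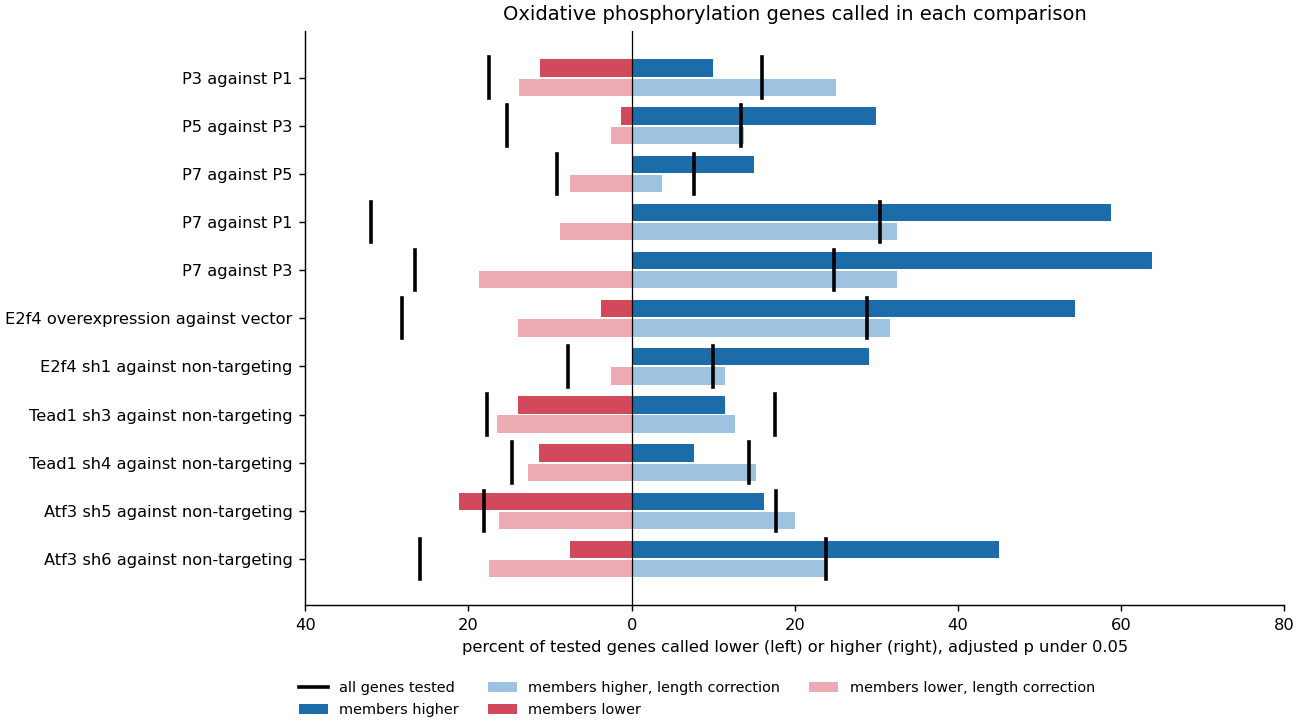
Percent of the tested subunit genes called higher (right, blue) or lower (left, red) in each comparison, with pale bars for the counts after the length correction and black ticks for all genes tested. The blue bars pass the ticks in the comparisons of P5 with P3, P7 with P5, P7 with P1 and P7 with P3, with E2f4 overexpression and sh1 and with Atf3 sh6, most pale blue bars lie closer to them, and every pale red bar stays short of its tick.

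The promoters were examined by ATAC-seq as an independent readout of the same passages. A peak within 1000 bases of an annotated start was found in each of the 13 samples for 79 of the 84 genes, and for 12465 of 13400 tested genes (93.0%). The exceptions were isoforms of complex IV, with no peak in any sample for Cox7b2 and Cox8c, and peaks in 12, 1 and 2 samples for Cox4i2, Cox6a2 and Cox8b. Ndufs5, with 0 counts in the RNA, had a promoter peak in all 13. Peak strength was ranked within each sample by the −log10 p of MACS2 as a percentile of all peaks. The median percentile of the genes was between 91.3 and 93.8 in the 13 samples, and that of all genes between 89.8 and 92.9.

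Promoter ranks were, for most genes, not higher at P7. Of the 79 genes, 10 had every P7 percentile above every P1 percentile and 23 every one below, beside 10.9% and 37.9% of all genes with peaks, and the median difference was -0.75 percentile points against -1.46. Ndufa7 was at 78.3 ± 5.23 (SD, n = 4) at P1 and 76.1 ± 1.52 (SD, n = 3) at P7. Among these genes the largest negative differences were at Ndufa1, from 68.5 ± 5.20 to 40.7 ± 10.6, at Ndufc2, from 76.8 ± 1.11 to 64.6 ± 3.58, at Ndufb6, from 85.2 ± 2.72 to 74.3 ± 8.17, and at Sdha, from 87.9 ± 2.47 to 77.9 ± 4.11. The largest positive difference was at Ndufb10, from 63.8 ± 5.95 to 77.4 ± 3.83. Cox6b2 was at 58.4 ± 6.36 and 58.2 ± 6.57. With 4 and 3 samples these are ranks of called peaks and not counts of reads, and no test was run on them.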

How the data were processed

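Per the labels and the methods of the study, RNA reads were trimmed with Trimmomatic 0.39, aligned to mm10 with HISAT2 2.2.1 and counted per gene with HTSeq 0.12.4 without strand, and the authors deposited raw counts, 1 table per library. For ATAC-seq, aligned with Bowtie2 2.3.5.1, the authors deposited MACS2 peaks called per sample, with −log10 p and q values and a fold enrichment, a ratio that was not used here. Lines of 28 intervention tables that name no gene, with 7.5 to 16.761% of their reads, were left out. Methylation data of the study were not analysed here.

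Groups were taken from the labels. Each experiment was fitted whole in edgeR 4.0.16 (R 4.3.3), with its filter on low counts, TMM scaling and quasi-likelihood tests, and p-values were adjusted over all genes tested by the Benjamini-Hochberg method. Total counts were 13430229 to 15725823 in the passages, 17433172 to 27552949 with E2f4 overexpression, 9147324 to 10467751 with E2f4 knockdown, 17460990 to 19440415 with Tead1 and 17245955 to 23380496 with Atf3 knockdown. Replicates differed by more than sampling noise, the chi-square of their counts over its degrees of freedom being 2.75 to 63.7 in 50 pairs, and each was counted as 1 sample. The test script was tested on simulated data.

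The length correction subtracted, per library, a lowess trend (span 0.3) of log2 CPM on exonic length from GRCm38.p6, in which 24463 genes matched by symbol, 435 by an older symbol and 86 not at all. Peaks within 1000 bases of an annotated start were ranked within each sample. The lists of subunits, assembly factors, carriers, regulators and markers (skeletal muscle, macrophage, keratinocyte, adipocyte, endothelium, fibroblast) were chosen with earlier results of these data known. Genes were named by rule: core subunits, isoform families, the called genes with the largest changes, those past a fold of 2, and per list the called gene with the largest change. The values of 1 gene are not reported here, although it stays in the counts. Other genes, such as Atp5s, Ndufa11, Ndufv3 and those singled out for differing within a complex, were chosen after their values were seen. Alternatives were DESeq2 1.42.0, its size factors, other filters, the replicate block, fits of 2 groups, corrections for length and GC content, and omission of each library. The GC corrections were added after the data were seen.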

Additional observations from a re-analysis of the deposited data

Results flagged for a closer look

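Single libraries stood apart in 13 of 228 groups of 4 tested, and about 1 in 20 is flagged by chance. At P7, replicate 1 was apart for Atp5k (33.7 CPM, the others 19.9 to 21.2), Cox7b (106.0 CPM, the others 70.9 to 76.4), Sdhaf4 (17.4 CPM, the others 13.6 to 14.2) and Timmdc1 (31.6 CPM, the others 27.3 to 27.9), and replicate 4 for Esrra (31.7 CPM, the others 38.6 to 39.4). At P5, replicate 2 was apart for Lyrm7 (2.7 CPM, the others 2.12 to 2.13).

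At P3, replicate 2 was apart for Cox7a2 (53.8 CPM, the others 45.4 to 46.2) and Tmem70 (58.4 CPM, the others 45.4 to 47.2), and replicate 1 for Uqcrq (92.9 CPM, the others 75.7 to 77.6) and Timmdc1 (19.8 CPM, the others 16.7 to 17.0). At P1, replicate 1 was apart for Cox6b2 (0.342 CPM, the others at 0) and Uqcrh (70.1 CPM, the others 62.9 to 63.9), and replicate 4 for Timmdc1 (13.7 CPM, the others 15.8 to 15.9).

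The hairpins of a target were compared with each other by edgeR. Atf3 sh6 against sh5 had 37 genes higher and 2 lower, and Tead1 sh4 against sh3 had 1 higher and 2 lower. In the Atf3 pair, Ndufc2 differed by 1.33, Atp5g3 by 1.06, Ndufa12 by 1.05, Cox6b1 by 0.99 and Sdhd by 0.6 on the log2 scale, each called lower with sh5 and higher with sh6 against the non-targeting libraries.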

How the results depend on the processing

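Counts of genes called are given as higher and lower. The length correction gave 20 higher from P1 to P3, 11 and 2 from P3 to P5, 3 and 6 from P5 to P7, 26 and 7 from P1 to P7, 26 and 15 from P3 to P7, 25 and 11 with E2f4 overexpression, 9 and 2 with E2f4 sh1, 12 higher with Tead1 sh4, and 19 and 14 with Atf3 sh6. In the same order, the replicate block with the length correction gave 20, 11 and 2, 2 and 5, 24 and 6, 25 and 12, 28 and 15, 11 and 3, 13, and 18 and 14. All genes were then called at 17.7%, 14% and 15.6%, 9.02% and 10.6%, 30.7% and 32.4%, and 25.2% and 26.4% in the passages. In the interventions they were called at 31.9% and 30.4%, 11.3% and 8.69%, 15.2%, and 23.3% and 25%. The correction for length and GC content together gave 24, 10 and 5, 6 and 7, 24 and 10, 21 and 19, 20 and 23, 11 and 2, 14, and 22 and 14. All genes were then called at 18.7%, 12.4% and 14.5%, 11.7% and 12.8%, 31.9% and 34.1%, and 25.1% and 26.6% in the passages. In the interventions they were called at 26.3% and 25.1%, 11.1% and 8.17%, 15.3%, and 26.7% and 28.8%. With Atf3 sh5 this correction gave 27 higher and 15 lower, beside 10.3% and 16.4% of all genes. GC content alone changed the lower counts to 0 from P3 to P5, 2 from P5 to P7, 2 from P3 to P7, 5 with E2f4 overexpression and 1 with sh1. Of all genes, 13.8%, 11.7%, 26.1%, 25.7% and 8.12% were called lower in these fits. Fits of only the 2 groups gave 14 and 23 from P1 to P3, beside 21.1% and 22.8% of all genes. They gave 3 higher from P5 to P7, beside 4.6%, and 10 lower with Atf3 sh6, beside 32.5%. A minimum of 10 counts in every library gave 3 higher from P1 to P3, beside 15.1% of all genes. No filter gave 1 lower from P1 to P7, beside 23.8%. The causes were not tested. DESeq2, its size factors in edgeR, and Ndufa4 placed in complex IV moved no count by over 1.5 times.

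Among the named values, directions reversed from P1 to P7 for Ndufv1 (-0.19) and Uqcrc1 (-0.15) with length and GC content. Cox5b reversed with length (-0.19), block and length (-0.19) and length and GC content (-0.23), and so did Atp5g2 (-0.18, -0.18 and -0.21). With E2f4 overexpression Ndufs4 reversed with GC content (0.18). Of 1091 alternatives for 112 named values, 1029 kept their side of the threshold, 51 lost and 2 gained a call, and 9 reversed. A change of sign where neither fit called the gene is counted as kept.

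With 1 library left out, counts ranged from 1 to 9 higher and 1 to 14 lower from P1 to P3, 14 to 39 and 0 to 1 from P3 to P5, 3 to 21 and 0 to 1 from P5 to P7, 36 to 59 and 0 to 1 from P1 to P7, 43 to 57 and 0 to 2 from P3 to P7, 30 to 48 and 0 to 6 with E2f4 overexpression, 5 to 31 and 0 to 2 with sh1, 5 to 9 and 8 to 11 with Tead1 sh3, 3 to 6 and 7 to 12 with sh4, 6 to 16 and 8 to 23 with Atf3 sh5, and 20 to 32 and 3 to 6 with sh6. Of 780 named values, 693 kept their call, 81 lost and 6 gained one. The ATAC-seq count was 79 to 80 and its median -0.95 to -0.7. The replicate numbers do not pair the libraries: correlations of same-numbered libraries ran from -0.513 to 0.525 in the passages, and the block alone gave 47 higher from P1 to P7 and 51 with E2f4 overexpression. Isoforms with few reads, such as Cox6b2, are limited by depth.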
